A study of Mus musculus with 12 samples.

Results

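The genes described here are 10 genes that act on collagen after its chains have been made, chosen by name from the 30705 genes listed: the lysyl oxidases *Lox*, *Loxl1*, *Loxl2*, *Loxl3*, and *Loxl4*, the procollagen C-proteinases *Bmp1* and *Tll1*, the C-proteinase enhancers *Pcolce* and *Pcolce2*, and the collagen chaperone *Serpinh1*. Of the 10 genes, 6 had a mean of at least 1 RPKM (reads per kilobase of transcript per M reads) over all samples and were tested among 11282 genes. Their mRNA was measured by RNA-seq in cultured murine BrafV600E melanoma cells, 3 samples of the scramble control and 3 per knockout line, *ptgs1*-KO, *ptgs2*-KO, and *ptges*-KO (written in capitals in the labels). The knocked-out genes code for COX-1 and COX-2, which turn arachidonic acid into the precursor of the prostaglandins, and for mPGES-1, which makes PGE2 from that precursor. Cells of all 4 groups came from a C57BL/6 mouse with the alleles Braf+/LSL-V600E, Tyr::CreERT2+/o, and p16INK4a-/-, so that the scramble cells carry them too, and the CreERT2 was under the tyrosinase promoter. The knockouts were made with CRISPR/CAS9, selected with puromycin, and subcloned by limiting dilution. The study speaks of the 3 samples of a group both as independent samples and as different subclones, and the p-values measure only the spread between these samples. If the samples of a group share a subclone, the knockout and differences between subclones cannot be told apart.

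Procollagen is folded in the endoplasmic reticulum with the help of the chaperone HSP47, the product of *Serpinh1*. Outside the cell the C-terminal propeptide is cut off by BMP1 and the related tolloid proteases, and this cut is sped up by the enhancer proteins made from *Pcolce* and *Pcolce2*. Collagen then assembles into fibrils, whose lysines are oxidized by the copper-dependent lysyl oxidases so that neighboring molecules become cross-linked. Members of this group are studied in melanoma and other tumors because cross-linked collagen stiffens the tissue around the cells.

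The knocked-out genes fell in their own lines by the limma test, *Ptgs1* from a mean of 151 RPKM in scramble cells to 16.0 in *ptgs1*-KO cells, *Ptgs2* from 761 to 79.8 in *ptgs2*-KO cells, and *Ptges* from 77.6 to 37.1 in *ptges*-KO cells (limma adjusted p of at most 1.07e-06 in each). In *ptgs1*-KO cells *Ptges* was also lower (54.5 against 77.6 RPKM, log2 fold change -0.50, limma adjusted p = 0.00110), and so was *Ptgs2* (598 against 761 RPKM, -0.36, adjusted p = 0.0386). Of 8 melanocyte lineage markers, *Tyrp1*, *Dct*, *Mlana*, and *Sox10* were listed at 0 in all 12 samples, and *Mitf* lay between 0.97 and 3.35 RPKM. *Tyr* ranged from 0.29 to 1.29 RPKM and *Pmel* from 0.19 to 0.92. *S100b*, listed at 0 in 5 samples, reached at most 0.17. The depth, estimated from the steps between low values, was 13.3 to 17.1 M reads per sample. *ptgs1*-KO replicate 3 stood apart from the other samples: the ribosomal RNA row *Rn45s* was at 47672 RPKM in it, against 2169 to 17613 in the other 11 samples, and the row AK155692 was at 74435 against 2504 to 24724. These 2 rows were picked after their values were seen. Calls of the 10 genes that changed without this sample are given with and without it. Without it, the call of *Ptgs2* in *ptgs1*-KO cells was lost (log2 fold change -0.24, adjusted p = 0.0792).

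Levels spanned the whole scale in these cells. *Pcolce* and *Serpinh1* were among the most abundant mRNAs, ranked 81 and 115 of 30705 genes by their mean RPKM in scramble cells. *Bmp1*, *Loxl4*, and *Loxl3* followed at ranks 1530, 2688, and 5222. *Pcolce2* was near 1 RPKM, and *Loxl1*, *Loxl2*, *Lox*, and *Tll1* stayed below 1 RPKM in all 12 samples. For each function, at least 1 gene was therefore well expressed: *Loxl3* and *Loxl4* among the lysyl oxidases, *Bmp1* as the protease, *Pcolce* as the enhancer, and *Serpinh1* as the chaperone.

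**Figure D1:**
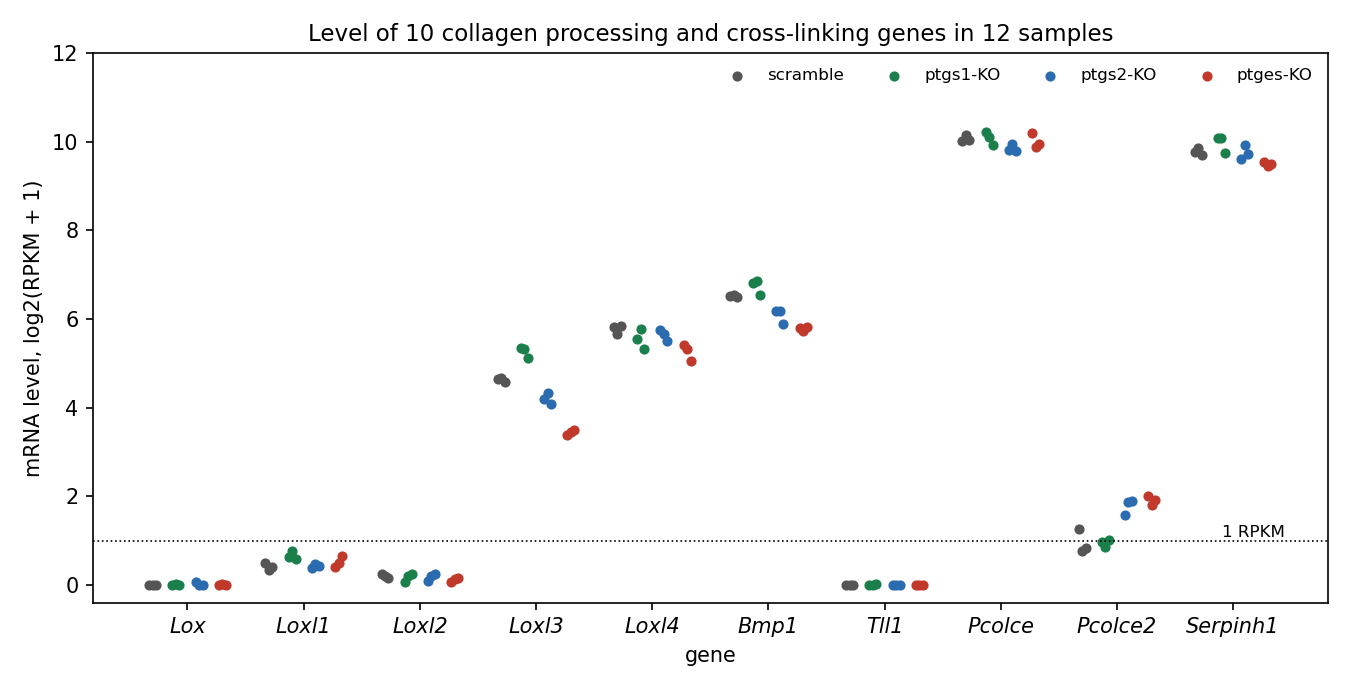
mRNA level of the 10 genes as log2(RPKM + 1) on the vertical axis, 1 point per sample, colored by group, with 3 samples in each group. *Pcolce* and *Serpinh1* lie highest, *Loxl3*, *Loxl4*, and *Bmp1* in the middle, and *Lox*, *Loxl1*, *Loxl2*, and *Tll1* below the dotted line at 1 RPKM.

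*Loxl3*, a lysyl oxidase with scavenger receptor domains (gene at chr6:83034173-83052562 on GRCm38, plus strand), separated all 4 groups. Its RPKM was 24.14, 24.55, and 22.92 in the scramble samples, 39.64, 38.88, and 33.69 in *ptgs1*-KO, 17.36, 19.13, and 16.04 in *ptgs2*-KO, and 9.37, 9.86, and 10.32 in *ptges*-KO. No pair of groups overlapped, and the order was *ptgs1*-KO, scramble, *ptgs2*-KO, *ptges*-KO from high to low. Compared with the scramble mean of 23.9 ± 0.848 (SD, n = 3), the level was 157% in *ptgs1*-KO cells, a log2 fold change of 0.62 with a standard error (SE) of 0.0901 and a limma adjusted p of 0.000604. Fold changes here and below are on log2(RPKM + 1), which understates the changes of low genes. In *ptgs2*-KO cells *Loxl3* fell to 73.4% (log2 fold change -0.43, adjusted p = 0.00860), and in *ptges*-KO cells to 41.3% (-1.20, adjusted p = 1.07e-06). The differences between neighbors in this order passed the test in each of the 3 cases, with *ptges*-KO at 56.3% of *ptgs2*-KO cells (log2 fold change -0.77, adjusted p = 6.41e-05). In bulk RNA, fewer cells with the transcript and less of it per cell cannot be told apart.

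The rise of *Loxl3* in *ptgs1*-KO cells was 0.70 on the log2 scale without *ptgs1*-KO replicate 3 (adjusted p = 0.000541). Without that sample, *Loxl3* differed from *ptgs1*-KO cells by -1.89 in *ptges*-KO and by -1.12 in *ptgs2*-KO cells, in place of -1.82 and -1.05. By Tukey's test on untransformed RPKM, the adjusted p was 0.162 for *ptgs2*-KO against scramble cells and 0.0656 for *ptges*-KO against *ptgs2*-KO cells, so that these calls were lost. Here and below, p values of Tukey's test were corrected over the 6 pairs and then adjusted over all genes tested. This is stricter than Tukey's test alone, and calls without the adjustment over genes were not examined. *Loxl3* shares 535 of its exonic bases (11.6%) with *Htra2* on the opposite strand, and the sources used here do not say whether the counting used strand. *Htra2*, a mitochondrial protease, was at 116 ± 9.52, 115 ± 9.08, 89.6 ± 7.70, and 83.8 ± 9.88 RPKM in scramble cells and in the *ptgs1*, *ptgs2*, and *ptges* knockouts (SD, n = 3). Its log2 fold changes against scramble were -0.0023, -0.36, and -0.46 in the same order of knockouts (limma adjusted p = 0.993, 0.0369, and 0.00529). Thus *Htra2* was also lower in *ptgs2*-KO and *ptges*-KO cells. Its log2 fold change was near that of *Loxl3* in *ptgs2*-KO cells (-0.36 against -0.43) and smaller in size in *ptges*-KO cells (-0.46 against -1.20). In *ptgs1*-KO cells, where *Loxl3* rose, *Htra2* did not pass the test. The part of shared reads in the *Loxl3* values was not tested.

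*Loxl4*, the most abundant lysyl oxidase mRNA in each of the 4 groups (chr19:42593982-42612813, minus strand), was lowest in *ptges*-KO cells. It was at 55.23, 49.62, and 56.35 RPKM in scramble, 45.60, 53.92, and 38.98 in *ptgs1*-KO, 53.10, 49.48, and 44.57 in *ptgs2*-KO, and 41.86, 38.86, and 32.19 in *ptges*-KO samples. The *ptges*-KO samples lay below all scramble and *ptgs2*-KO samples and overlapped with *ptgs1*-KO, while scramble, *ptgs1*-KO, and *ptgs2*-KO samples overlapped with one another. The mean in *ptges*-KO cells was 70.0% of that in scramble cells (37.6 ± 4.95 against 53.7 ± 3.61 RPKM, log2 fold change -0.51, SE 0.123, limma adjusted p = 0.00876). This call was lost with Tukey's test on untransformed RPKM (adjusted p = 0.136). Against *ptgs2*-KO cells the log2 fold change was -0.38 (adjusted p = 0.0518), and against *ptgs1*-KO cells -0.28 (adjusted p = 0.0980), so that the difference of *ptges*-KO from the other knockouts did not pass the test. Without *ptgs1*-KO replicate 3 these adjusted p values were 0.0314 and 0.0294. The first was also 0.0355 without *ptgs1*-KO replicate 2, 0.0456 without *ptgs2*-KO replicate 3, and 0.0293 without *ptges*-KO replicate 1. Over all 23 settings, the adjusted p was under 0.05 in 9 against *ptgs2*-KO cells and in 2 against *ptgs1*-KO cells. In *ptgs1*-KO and *ptgs2*-KO against scramble cells, the 95% intervals of the log2 fold change were -0.49 to 0.040 and -0.40 to 0.13. The promoter of *Loxl4* from 250 bases before to 50 bases after the RefSeq start is shown as that of the major lysyl oxidase of these cells (GRCm38.p6, chr19:42612757-42613056, minus strand, 5′ to 3′, GC boxes in capitals).
Loxl4: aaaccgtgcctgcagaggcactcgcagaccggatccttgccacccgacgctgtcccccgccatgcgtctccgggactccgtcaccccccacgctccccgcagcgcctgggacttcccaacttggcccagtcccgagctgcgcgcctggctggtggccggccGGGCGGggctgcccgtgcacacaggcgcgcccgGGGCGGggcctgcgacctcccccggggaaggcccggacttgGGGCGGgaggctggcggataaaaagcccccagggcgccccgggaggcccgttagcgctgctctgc
It held 3 GC boxes, GGGCGG on either strand, beginning 89, 56, and 15 bases before the start, and its GC content was 75%, against a median of 52.7% over 32851 mouse promoters of the same length. A GC box was found in 35.7% of all these promoters. TATAAA (in 13.6% of all promoters), CCAAT (37.4%), the cAMP response element TGACGTCA (1.79%), and the AP-1 site TGANTCA (7.81%) had no match in it on either strand. These are matches of letters and not binding sites.

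The remaining lysyl oxidases were too low to be tested. *Lox*, the founding member of the family, was listed at 0 in 9 of 12 samples and reached at most 0.04 RPKM. *Loxl2* ranged from 0.05 to 0.19 RPKM over the 12 samples. *Loxl1*, known for cross-linking elastin, was at 0.41, 0.27, and 0.32 RPKM in scramble, 0.54, 0.69, and 0.51 in *ptgs1*-KO, 0.30, 0.39, and 0.34 in *ptgs2*-KO, and 0.32, 0.40, and 0.57 in *ptges*-KO samples. The *ptgs1*-KO samples lay above the scramble and *ptgs2*-KO samples and overlapped with *ptges*-KO. With no filter on low values, the log2 fold change of *Loxl1* was 0.24 in *ptgs1*-KO against scramble cells (limma adjusted p = 0.0698) and -0.23 in *ptgs2*-KO against *ptgs1*-KO cells (adjusted p = 0.0488).

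Summed over the 5 lysyl oxidases, the level was 78.1 ± 3.03 RPKM in scramble, 84.3 ± 10.2 in *ptgs1*-KO, 67.0 ± 5.19 in *ptgs2*-KO, and 48.0 ± 4.34 in *ptges*-KO cells (SD, n = 3). The *ptges*-KO samples, from 43.2 to 51.6, lay below the samples of the other groups, the lowest of which was at 61.1. *Loxl3* made up 30.6% ± 2.11 of this sum in scramble cells, 44.5% ± 2.62 in *ptgs1*-KO, 26.1% ± 1.59 in *ptgs2*-KO, and 20.7% ± 2.93 in *ptges*-KO cells. The 4 groups did not overlap in this share, so that *Loxl3* and *Loxl4* stood in a different proportion in each line, with *Loxl4* above *Loxl3* throughout. The sum in *ptgs1*-KO cells was 89.7 RPKM and the share 43.9% over the 2 samples other than *ptgs1*-KO replicate 3. These sums and shares were not tested.

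*Bmp1*, the main procollagen C-proteinase, which also cuts chordin and other matrix proteins (chr14:70474558-70520234, minus strand), was lower in *ptgs2*-KO and *ptges*-KO cells. Its RPKM was 90.43, 92.41, and 89.71 in scramble, 111.92, 115.52, and 91.67 in *ptgs1*-KO, 70.92, 71.43, and 57.82 in *ptgs2*-KO, and 54.72, 52.14, and 55.58 in *ptges*-KO samples. The *ptgs2*-KO and *ptges*-KO samples lay below all scramble and *ptgs1*-KO samples, and the 3 *ptges*-KO samples lay below the lowest *ptgs2*-KO sample. From a scramble mean of 90.9 ± 1.40 RPKM (SD, n = 3), it fell to 73.4% in *ptgs2*-KO cells (log2 fold change -0.45, SE 0.0985, limma adjusted p = 0.0112) and to 59.6% in *ptges*-KO cells (-0.74, adjusted p = 0.000178). With Tukey's test on untransformed RPKM, the call in *ptgs2*-KO cells was lost (adjusted p = 0.207). The difference between *ptges*-KO and *ptgs2*-KO cells did not pass the test (log2 fold change -0.29, adjusted p = 0.0613), whereas that between *ptges*-KO and *ptgs1*-KO cells did (-0.95, adjusted p = 1.07e-05, and -1.06 with an adjusted p of 6.63e-06 without *ptgs1*-KO replicate 3).

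In *ptgs1*-KO cells, 2 of 3 samples were above all scramble samples in *Bmp1*, and *ptgs1*-KO replicate 3, the sample with more ribosomal RNA, was within the scramble range. The log2 fold change against scramble was 0.22 with a 95% interval of 0.0053 to 0.43 and an adjusted p of 0.200, and it was 0.32 with an adjusted p of 0.0460 without that sample. Without the same sample, the *Bmp1* difference between *ptges*-KO and *ptgs2*-KO cells had an adjusted p of 0.0260, and without *ptgs2*-KO replicate 3 one of 0.0182. Whether the ribosomal RNA in this sample bears on these values was not tested. *Tll1*, the tolloid-like protease, was listed at 0 in 11 samples and at 0.01 RPKM in *ptgs1*-KO replicate 3, which leaves *Bmp1* as the C-proteinase that was expressed.

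**Figure D2:**
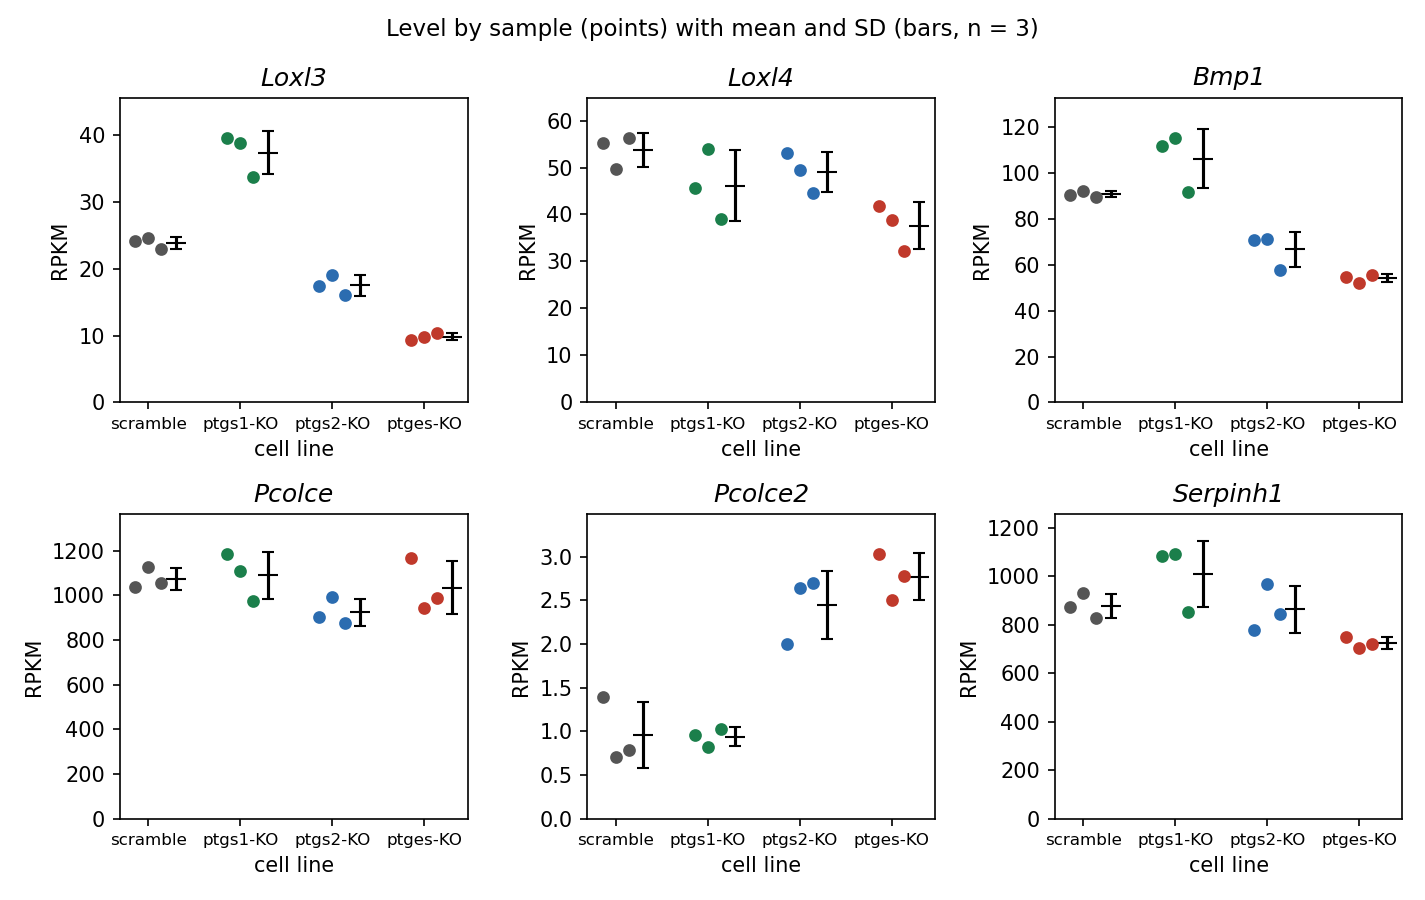
Level of the 6 tested genes in RPKM on the vertical axis, each from 0, by group on the horizontal axis, with points for the 3 samples and bars for the mean and SD. *Loxl3* separates all 4 groups, *Bmp1* and *Loxl4* are lowest in *ptges*-KO cells, *Pcolce2* is higher in *ptgs2*-KO and *ptges*-KO cells, and the *Pcolce* groups lie close together.

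The C-proteinase enhancers behaved differently from each other. *Pcolce* (chr5:137605103-137613784, minus strand) was at 1035.38, 1127.09, and 1055.38 RPKM in scramble, 1185.03, 1106.88, and 975.41 in *ptgs1*-KO, 900.76, 992.98, and 877.39 in *ptgs2*-KO, and 1167.64, 942.85, and 989.95 in *ptges*-KO samples. The *ptgs2*-KO samples lay below the scramble samples, and all other pairs of groups overlapped. The log2 fold change against scramble was 0.018 in *ptgs1*-KO (95% interval -0.21 to 0.24), -0.22 in *ptgs2*-KO (-0.44 to 0.0069), and -0.059 in *ptges*-KO cells (-0.28 to 0.16). No difference between groups passed the test for *Pcolce* in any of the 6 comparisons, and the lowest limma adjusted p was 0.121, for *ptgs2*-KO against *ptgs1*-KO cells. In that comparison it was 0.0479 without *ptgs1*-KO replicate 3.

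*Pcolce2* (chr9:95637601-95698096, plus strand) was higher in *ptgs2*-KO and *ptges*-KO cells. It was at 1.39, 0.70, and 0.78 RPKM in scramble, 0.96, 0.82, and 1.03 in *ptgs1*-KO, 2.00, 2.64, and 2.70 in *ptgs2*-KO, and 3.03, 2.50, and 2.78 in *ptges*-KO samples. All *ptgs2*-KO and *ptges*-KO samples lay above all scramble and *ptgs1*-KO samples, and the groups overlapped within each of these pairs. Without *ptgs1*-KO replicate 3, the log2 differences from *ptgs1*-KO cells were 0.86 in *ptgs2*-KO and 0.99 in *ptges*-KO cells. The means were 2.56-fold (*ptgs2*-KO) and 2.90-fold (*ptges*-KO) that of scramble cells, with log2 fold changes of 0.83 (SE 0.147, limma adjusted p = 0.00321) and 0.96 (adjusted p = 0.000497). The scramble and *ptgs1*-KO means were 0.957 ± 0.377 and 0.937 ± 0.107 RPKM (SD, n = 3), below the filter of 1 RPKM. *Pcolce2* thus passed the filter through the groups in which it was high and had to differ if tested. Even at its highest, *Pcolce2* made up at most 0.307% of the summed RPKM of both enhancers in a sample.

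The promoters of this pair are shown because the enhancers are paralogs whose levels differ by orders of magnitude (RefSeq starts, 250 bases before to 50 after, GRCm38.p6, 5′ to 3′, GC boxes in capitals). That of *Pcolce* lies at chr5:137611355-137611654 on the minus strand and that of *Pcolce2* at chr9:95637378-95637677 on the plus strand.
Pcolce: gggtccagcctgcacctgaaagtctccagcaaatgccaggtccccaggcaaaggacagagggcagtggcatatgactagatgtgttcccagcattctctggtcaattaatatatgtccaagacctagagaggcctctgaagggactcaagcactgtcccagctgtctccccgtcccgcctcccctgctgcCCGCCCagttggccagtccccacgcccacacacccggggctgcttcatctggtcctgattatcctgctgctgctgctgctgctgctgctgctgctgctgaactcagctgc
Pcolce2: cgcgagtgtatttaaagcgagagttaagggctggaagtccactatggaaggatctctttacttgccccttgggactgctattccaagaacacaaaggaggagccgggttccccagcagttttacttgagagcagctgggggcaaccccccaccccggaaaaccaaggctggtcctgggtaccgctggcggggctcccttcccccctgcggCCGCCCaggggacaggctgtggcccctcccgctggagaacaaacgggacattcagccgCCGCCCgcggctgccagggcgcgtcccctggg
*Pcolce* held 1 GC box, 60 bases before the start, and *Pcolce2* held 2, beginning 40 bases before and 19 bases after it. The GC content was 59.3% and 63.7%. No match to the other motifs named for *Loxl4* was found in either window.

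*Serpinh1*, the gene of the chaperone HSP47 (chr7:99345376-99353239, minus strand), showed smaller differences. It was at 873.18, 927.99, and 828.12 RPKM in scramble, 1080.69, 1091.03, and 853.33 in *ptgs1*-KO, 778.29, 966.14, and 842.67 in *ptgs2*-KO, and 748.65, 701.59, and 721.54 in *ptges*-KO samples. The *ptges*-KO samples lay below all other samples, and scramble, *ptgs1*-KO, and *ptgs2*-KO samples overlapped. *Serpinh1* was lower in *ptges*-KO than in *ptgs1*-KO cells (724 ± 23.6 against 1008 ± 134 RPKM, log2 fold change -0.47, SE 0.109, limma adjusted p = 0.00599), a call that was lost with Tukey's test on untransformed RPKM (adjusted p = 0.0918). This difference was -0.58 without *ptgs1*-KO replicate 3 (adjusted p = 0.000939). Against scramble cells the *ptges*-KO level was 82.6%, and the difference did not pass the test (log2 fold change -0.27, 95% interval -0.51 to -0.038, adjusted p = 0.0817). It passed in 4 of 23 settings, among them the fit without *ptgs1*-KO replicate 3 (adjusted p = 0.0318). In *ptgs1*-KO and *ptgs2*-KO against scramble cells the log2 fold changes were 0.19 (adjusted p = 0.312) and -0.028 (adjusted p = 0.900). Without *ptgs1*-KO replicate 3, the difference between *ptgs2*-KO and *ptgs1*-KO cells was -0.34 (adjusted p = 0.0251), against -0.22 with it (adjusted p = 0.165).

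Counted over the 6 genes tested, *ptgs1*-KO cells differed from scramble cells in 1 gene, *Loxl3*, which was higher, where 9.26% of all genes tested passed, 4.65% as higher and 4.61% as lower. In *ptgs2*-KO cells *Pcolce2* was higher and *Loxl3* and *Bmp1* were lower, 3 of 6 genes against 11.1% of all genes, 5.97% higher and 5.17% lower. In *ptges*-KO cells *Pcolce2* was higher and *Loxl3*, *Loxl4*, and *Bmp1* were lower, 4 of 6 genes against 26.3% of all genes, 11.9% higher and 14.4% lower. The comparisons with scramble cells share the same 3 control samples. The groups did not overlap in 1, 4, and 5 of the 6 genes in these comparisons, where this held for 26.9%, 35.1%, and 43.3% of all genes. The median log2 fold change of the 6 genes was 0.11, -0.17, and -0.39, beside 0.0069, 0.0088, and -0.030 over all genes tested. Counts and medians include *Pcolce2*, which had to differ.

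**Figure D3:**
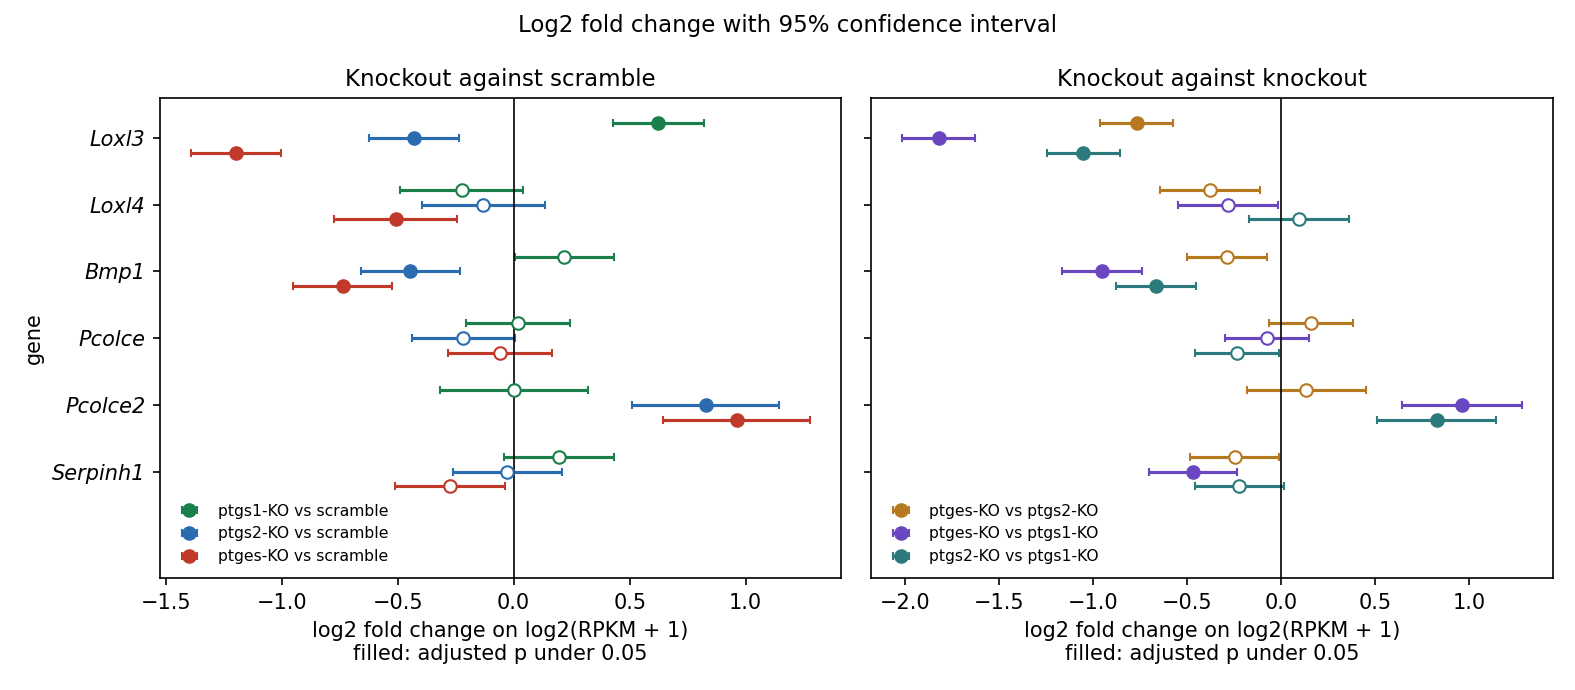
Log2 fold change of the 6 tested genes on log2(RPKM + 1), horizontal axis, with its 95% confidence interval, for each knockout against scramble cells (left) and for the knockouts against each other (right), where filled points have a limma adjusted p under 0.05. *Loxl3* is filled in all 6 comparisons and *Pcolce* in none.

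Between the knockouts, *ptges*-KO and *ptgs2*-KO cells differed in 1 of the 6 genes, *Loxl3*, which was lower, where 16.6% of all genes passed, 6.76% as higher and 9.84% as lower. The groups nevertheless did not overlap in 4 of 6 genes, *Loxl3*, *Loxl4*, *Bmp1*, and *Serpinh1*, each lower in *ptges*-KO cells (34.0% of all genes did not overlap). The count of 1 gene was among the least stable values: it was 3 without *ptgs1*-KO replicate 3 or without *ptgs2*-KO replicate 3 and 0 with Tukey's test. In *ptges*-KO against *ptgs1*-KO cells, *Loxl3*, *Bmp1*, and *Serpinh1* were lower and *Pcolce2* was higher, 4 of 6 genes against 30.2% of all genes (13.2% higher, 17.0% lower), and the groups did not overlap in these 4 genes (40.3% of all genes). In *ptgs2*-KO against *ptgs1*-KO cells, *Loxl3* and *Bmp1* were lower and *Pcolce2* was higher, 3 of 6 genes against 23.6% of all genes (12.1% higher, 11.6% lower), and the groups did not overlap in these 3 (35.2% of all genes). Over all 4 groups, limma's F test passed for 5 of the 6 genes, all but *Pcolce* (adjusted p = 0.224), where it passed for 38.6% of all genes. The counts against *ptgs1*-KO cells and that of the F test include *Pcolce2*, which had to differ. The F test of *Loxl4* and *Serpinh1* was the closest to the threshold (adjusted p = 0.0246 and 0.0245).

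*Bmp1* and *Serpinh1* had the same order of means as *Loxl3*, namely *ptgs1*-KO, scramble, *ptgs2*-KO, *ptges*-KO from high to low. Among neighbors in this order, the scramble and *ptgs2*-KO means of *Bmp1* differed, and no neighbors of *Serpinh1* did. *Loxl4* was highest in scramble cells, followed by *ptgs2*-KO, *ptgs1*-KO, and *ptges*-KO cells, with no difference between neighbors past the test. *Pcolce2* ran the other way, from *ptges*-KO to *ptgs2*-KO, scramble, and *ptgs1*-KO cells, with *ptgs2*-KO and scramble as the only neighbors that differed. *Pcolce2* passed the filter through the groups in which it was high and had to differ, so that its order and range are values only. The range between the highest and lowest group mean was 1.82 on the log2 scale for *Loxl3*, 0.96 for *Pcolce2*, 0.95 for *Bmp1*, 0.51 for *Loxl4*, 0.47 for *Serpinh1*, and 0.23 for *Pcolce*.

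The proportions between the genes shifted with them. The ratio of *Pcolce* to *Bmp1* RPKM was 11.8 ± 0.375 in scramble, 10.3 ± 0.597 in *ptgs1*-KO, 13.9 ± 1.24 in *ptgs2*-KO, and 19.1 ± 1.96 in *ptges*-KO cells (SD, n = 3), and no groups overlapped in it. The ratio of *Serpinh1* to the summed RPKM of 43 collagen chain genes was 0.518 ± 0.0337, 0.586 ± 0.0453, 0.661 ± 0.129, and 0.762 ± 0.0580 in the same order. The *ptges*-KO samples, from 0.698 to 0.812, lay above the scramble samples, the highest of which was at 0.540, and overlapped with *ptgs2*-KO. The *ptgs1*-KO samples, from 0.542 to 0.632, also lay above the scramble samples. The collagen sum itself was 1695, 1718, 1328, and 956 RPKM, so that it was lower relative to *Serpinh1* in *ptges*-KO than in scramble cells. Most of the sum in scramble cells came from *Col3a1*, *Col4a1*, and *Col4a2*, at 466, 508, and 351 RPKM. The ratios in *ptgs1*-KO cells without *ptgs1*-KO replicate 3 were 10.1 for *Pcolce* to *Bmp1* and 0.608 for *Serpinh1* to the collagen sum. These ratios were not tested.

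**Figure D4:**
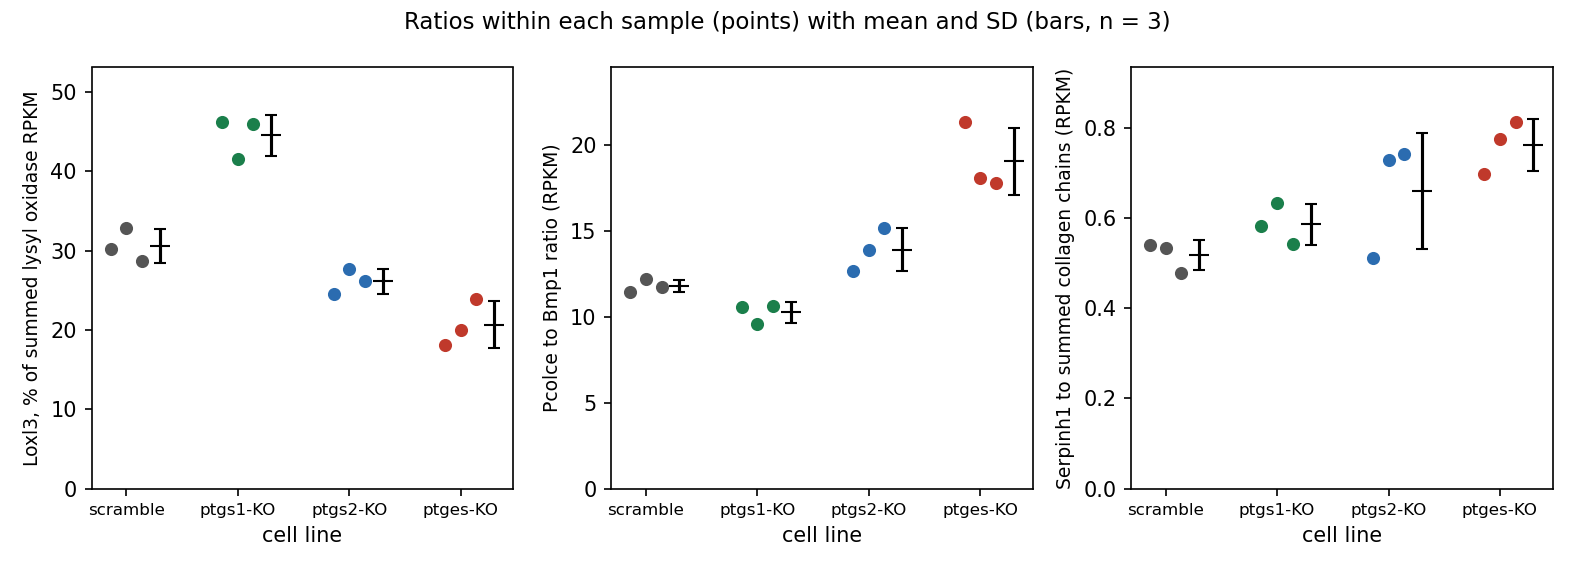
Ratios within each sample by group: the share of *Loxl3* in the summed lysyl oxidase RPKM in percent (left), *Pcolce* to *Bmp1* (middle), and *Serpinh1* to the summed RPKM of 43 collagen chain genes (right), with points for the 3 samples and bars for the mean and SD. In *ptges*-KO cells the first ratio is lowest and the second highest, with no overlap with the other groups.

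Other genes on the same route were counted in lists around these 10. Over all genes tested, the shares that passed against scramble cells were 4.65% higher and 4.61% lower in *ptgs1*-KO, 5.97% and 5.17% in *ptgs2*-KO, and 11.9% and 14.4% in *ptges*-KO cells, with medians of 0.0069, 0.0088, and -0.030 on the log2 scale, and each list is given beside these. Of 6 other procollagen proteases, *Adamts14*, a procollagen N-proteinase, was the only one tested, and it was lower in *ptges*-KO cells than in the scramble control (11.9 ± 0.826 against 20.7 ± 1.56 RPKM, SD, n = 3, log2 fold change -0.75, limma adjusted p = 0.000170). It was also lower in *ptgs2*-KO cells (-0.37, adjusted p = 0.0300). Of 14 hydroxylases and their partners tested, which modify the prolines and lysines of the chains, 3 were lower and 0 higher in *ptgs1*-KO, 3 lower and 0 higher in *ptgs2*-KO, and 6 lower and 1 higher in *ptges*-KO cells. The list of the latter included *Plod1*, a lysyl hydroxylase whose product acts on the lysines later used for cross-links, at 51.6 ± 2.68 against 84.1 ± 4.21 RPKM in scramble cells (log2 fold change -0.69, adjusted p = 0.000474). *P4ha2*, a subunit of prolyl 4-hydroxylase, was the one that was higher in *ptges*-KO cells (16.4 against 8.18 RPKM, log2 fold change 0.92, adjusted p = 0.000161), and *Plod2* and *P4ha1* were lower in *ptgs1*-KO cells (-0.53 and -0.57). Also lower by at least 0.5 were *Fkbp10*, *Lepre1*, and *Leprel1* in *ptges*-KO (-0.69, -0.58, and -0.51) and *Plod1* and *Leprel2* in *ptgs2*-KO cells (-0.57 and -0.52). The median log2 fold change of the hydroxylase list was -0.12, -0.15, and -0.13 in the *ptgs1*, *ptgs2*, and *ptges* knockouts. The counts of lower hydroxylase genes were 2, 4, and 7 without *ptgs1*-KO replicate 3.

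Of 5 procollagen export genes tested, 0 passed in *ptgs1*-KO and *ptgs2*-KO cells and 1, *Sec24d*, was lower in *ptges*-KO cells (median log2 fold change -0.063, 0.13, and -0.10). Without *ptgs1*-KO replicate 3, 1 was higher in *ptgs2*-KO and 2 were lower in *ptges*-KO cells, and the counts of the other lists against scramble cells did not move. Of 6 collagen chains of the fibrillar and basement membrane list, 1 was higher and 1 lower in *ptgs1*-KO, 1 higher and 2 lower in *ptgs2*-KO, and 1 higher and 5 lower in *ptges*-KO cells, with medians of 0.018, -0.30, and -0.71. *Col3a1*, a fibrillar chain, and *Col4a1*, a basement membrane chain, were lower in *ptgs2*-KO (-0.69 and -0.57) and in *ptges*-KO cells (-1.19 and -0.77). *Col4a2* was lower in *ptges*-KO cells (-0.67). The chains of type V collagen moved apart: *Col5a1* was higher in *ptgs1*-KO (1.64) and lower in *ptges*-KO cells (-0.75), and *Col5a2* was lower in *ptgs1*-KO (-2.12) and higher in *ptgs2*-KO and *ptges*-KO cells (2.75 and 0.93). *Col5a2* was at 4.14, 0.18, 33.7, and 8.85 RPKM in scramble cells and in the *ptgs1*, *ptgs2*, and *ptges* knockouts. It passed the filter through the groups other than *ptgs1*-KO and had to differ there, and the count of lower chains in *ptgs1*-KO cells includes it. Of 7 matrix partners and other substrates of these enzymes, 4 were higher and 0 lower in *ptgs1*-KO, 3 higher and 2 lower in *ptgs2*-KO, and 2 higher and 2 lower in *ptges*-KO cells, with medians of 0.32, -0.029, and -0.19. *Fn1*, coding for fibronectin, rose from 43.8 ± 2.51 to 99.0 ± 6.07 RPKM in *ptgs1*-KO cells (log2 fold change 1.16, limma adjusted p = 2.60e-05) and fell to 16.1 ± 2.29 in *ptges*-KO cells (-1.39, adjusted p = 2.93e-06). *Fbn1*, coding for fibrillin-1, was higher in *ptgs2*-KO and *ptges*-KO cells (40.7 and 43.6 against 18.1 RPKM), with log2 fold changes of 1.12 and 1.21. *Fbln5*, coding for fibulin-5, was higher in *ptgs1*-KO cells (0.59), and *Col7a1*, coding for the chain of collagen VII, was higher in *ptgs2*-KO cells (1.91). *Chrd*, coding for the BMP1 substrate chordin, was at 1.96, 2.22, 0.903, and 0.520 RPKM in scramble cells and in the *ptgs1*, *ptgs2*, and *ptges* knockouts. It passed the filter through the groups in which it was high and had to differ, and the counts of the matrix partners include it.

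Fibroblasts also make these enzymes, and 7 of their markers were examined. *Dcn*, *Lum*, and *Postn* were listed at 0 in all 12 samples. *Pdgfra* was the only marker of the list with a mean of at least 1 RPKM, and the summed level of the 7 markers ranged from 8.34 to 8.89 RPKM in scramble, 10.9 to 12.5 in *ptgs1*-KO, 3.81 to 4.98 in *ptgs2*-KO, and 5.03 to 6.01 in *ptges*-KO samples. The sum was carried mostly by *Pdgfra*, which ranged from 3.36 to 11.05 RPKM, and its part in the results was not tested. Endothelial and epithelial markers summed to at most 0.28 RPKM in a sample and leukocyte markers to at most 2.08.

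The genes whose values were nearest to those of the members over the 12 samples were found from the root mean square difference of their centered log2(RPKM + 1) values, over 11281 other genes. For *Loxl3* they were *Sema7a* (0.147), *Fam69b* (0.181), and 9930013L23Rik (0.185), where the median over all genes was 0.677. *Sema7a* was at 56.4, 79.0, 48.8, and 23.0 RPKM in scramble cells and in the *ptgs1*, *ptgs2*, and *ptges* knockouts. For *Bmp1* they were *Lamb2*, a laminin chain (0.0906), *Sgk1*, a protein kinase (0.101), and *Suox*, sulfite oxidase (0.103), beside a median of 0.411. For *Pcolce2* they were *Garnl3* (0.141), *Fxr1* (0.176), and *Eif2a* (0.190), beside a median of 0.515. The nearest of 11281 genes lie below the median by selection, so that the medians only give the scale. Among the 6 tested genes themselves, *Bmp1* was nearest to *Loxl3* (0.312), and *Pcolce2* was farthest from it (1.09).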

How the data were processed

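RNA of 12 samples, 3 in each of 4 groups of murine BrafV600E melanoma cells, was sequenced with paired 101 bp reads. The values were deposited by the authors as 1 table of 30705 genes with RPKM values to 2 decimals. Per the labels the build was mm10, and the aligner, counter, and annotation are not given in the sources used here. The values summed to 878504 to 903881 per sample, so a further scaling to a fixed total is possible. The labels and the methods name different kits for extraction and for libraries. The 10 genes and all lists were chosen with earlier results of these data known. Depth was estimated from 115 to 192 low values per sample of genes with single transcripts of at most 1500 bases.

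Values were analyzed with limma 3.58.1 in R 4.3.3, and figures and tables were made in Python 3.11.15. The 11282 genes whose mean over the samples reached 1 RPKM were tested as log2(RPKM + 1), with a pseudocount of 1, by lmFit and eBayes with trend and all 12 samples in the model, for all 6 pairs of groups and by the F test. P values were adjusted by Benjamini and Hochberg's method over the 11282 genes, a gene passed at an adjusted p under 0.05, and tests are two-sided. RPKM is not a count, so no count test was used. The steps were tested on simulated data. Named genes were the 10 members, the 3 knocked-out genes, the list genes with an adjusted p under 0.05 and a log2 fold change of 0.5 or more in size against scramble cells, and for the 3 members with the widest range the 3 nearest genes. Marker genes were named from their lists, and 1 list gene that met the rule is not reported here. *Htra2*, *Sec24d*, *Rn45s*, and AK155692 were named outside this rule after their values were seen. 6 list genes were matched by an older symbol. Positions are from GENCODE M21 on GRCm38, the build the labels call mm10, and promoters from the RefSeq table on GRCm38.p6, which held 5 of the 10 genes.

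Alternatives tried were no filter, a filter at a mean of 10 RPKM, a pseudocount of 0.1, eBayes without trend, a model of the 2 groups alone, median ratio scaling, quantile normalization, a replicate block, Tukey's test on untransformed RPKM, and each sample left out in turn. Tukey's test is named in the study's methods. Its p values, already corrected over the 6 pairs, were here also adjusted over all genes, which is stricter than that test alone. Scaling without the 20 highest genes, and the lists and ratios without *ptgs1*-KO replicate 3, were added after the data were seen.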

Additional observations from a re-analysis of the deposited data

Results flagged for a closer look

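In 8 cases a knockout line differed from another by a direct limma test, on log2(RPKM + 1) with 3 samples in each group. The log2 difference of *Loxl3* was -0.77 between *ptges*-KO and *ptgs2*-KO cells, -1.82 between *ptges*-KO and *ptgs1*-KO cells, and -1.05 between *ptgs2*-KO and *ptgs1*-KO cells. That of *Bmp1* was -0.95 between *ptges*-KO and *ptgs1*-KO cells and -0.66 between *ptgs2*-KO and *ptgs1*-KO cells. *Pcolce2* was 0.96 higher in *ptges*-KO and 0.83 higher in *ptgs2*-KO than in *ptgs1*-KO cells, but it passed the filter through the groups in which it was high and had to differ, so that these 2 cases are values only. *Serpinh1* differed by -0.47 between *ptges*-KO and *ptgs1*-KO cells. In each case all 3 samples of one group lay beyond all 3 of the other, which adds little for genes that were picked for passing the test. Of all genes tested, 16.6% passed in *ptges*-KO against *ptgs2*-KO, 30.2% in *ptges*-KO against *ptgs1*-KO, and 23.6% in *ptgs2*-KO against *ptgs1*-KO cells. The groups did not overlap in 34.0%, 40.3%, and 35.2% of all genes in the same order.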

How the results depend on the processing

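Counts of the 6 tested genes that passed were within 1.5 times the reported count in most settings. For *ptges*-KO against *ptgs2*-KO cells, where 1 gene passed, the count was 2 with a filter at a mean of 10 RPKM, 3 with median ratio scaling, 4 with quantile normalization, 4 without the 20 highest genes, and 0 with Tukey's test. For *ptgs2*-KO against scramble cells it was 1 with Tukey's test in place of 3, and for the F test it was 3 in place of 5 with no filter and 3 with Tukey's test. Leaving out 1 sample gave 1 to 2 genes for *ptgs1*-KO, 3 to 3 for *ptgs2*-KO, and 4 to 5 for *ptges*-KO against scramble cells, 1 to 3 for *ptges*-KO against *ptgs2*-KO, 4 to 5 for *ptges*-KO against *ptgs1*-KO, 3 to 5 for *ptgs2*-KO against *ptgs1*-KO cells, and 3 to 5 for the F test. The F test count was 3 without *ptges*-KO replicate 2 or 3. For *ptgs2*-KO against *ptgs1*-KO cells the count was 5 without *ptgs1*-KO replicate 3, and for *ptges*-KO against *ptgs2*-KO cells it was 2 without *ptgs1*-KO replicate 2 or *ptges*-KO replicate 1. The cause of these differences was not tested.

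The replicate numbers were not shown to pair samples over all groups. Deviations from the group means correlated with a mean r of 0.0123 over 18 same-numbered pairs (-0.34 to 0.57), 5 of them over 0.1. Over 36 other pairs the mean r was -0.00456 (-0.47 to 0.32), with 12 of them over 0.1. Same-numbered *ptgs2*-KO and *ptges*-KO samples correlated at 0.57, 0.11, and 0.25, and same-numbered scramble and *ptges*-KO samples at -0.34, -0.19, and -0.17. With a replicate block, *ptges*-KO and *ptgs2*-KO cells differed in 3 genes, *Loxl4* and *Bmp1* in addition (adjusted p = 0.0327 and 0.0418). No other count moved by over 1.5 times with the block.

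Signs turned only for differences near 0 that passed in no setting. *Pcolce2* in *ptgs1*-KO against scramble cells was -0.0036 with median ratio scaling and -0.092 to 0.15 with samples left out. *Serpinh1* in *ptgs2*-KO against scramble cells was 0.00037 with quantile normalization and -0.11 to 0.043. With samples left out, *Pcolce* was -0.045 to 0.095 in *ptgs1*-KO and -0.15 to 0.0043 in *ptges*-KO against scramble cells, and *Loxl4* was -0.019 to 0.21 in *ptgs2*-KO against *ptgs1*-KO cells.

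Without the 20 highest genes the split of all genes called moved: 1054 were higher and 2354 lower in *ptges*-KO against scramble cells, in place of 1342 and 1627. Against *ptgs2*-KO cells it was 687 and 1747 in place of 763 and 1110, and against *ptgs1*-KO cells 1204 and 2763 in place of 1494 and 1915, with a median of -0.10 over all genes. In the same order these counts were 1895 and 1827, 1240 and 1260, and 2073 and 2049 with median ratio scaling, and 1870 and 1606, 1092 and 1253, and 1970 and 1791 with quantile normalization. The depth behind the low values of *Lox*, *Loxl2*, and *Tll1*, 13.3 to 17.1 M reads per sample, was only estimated, and with no filter no difference of these genes passed the test.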
